A study of Mus musculus with 20 samples.

Results

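The transcripts described here are 10 of the 32285 genes counted in nuclei of the mouse hippocampus: Gm30093, Fut2, Loxhd1, Slc6a20a, Sned1, Cnmd, Gm35554, Mannr, Gm9866 and Cda. They were chosen by their counts in CA1 pyramidal neurons, which were higher in mice under isoflurane than in awake mice, and most of them are rare in these neurons. The isoflurane difference in CA1 is therefore given below as a description, and the questions put to the data are which other cells of the same mice shared it and whether ketamine anesthesia gave it too. All 10 transcripts had counts in the files, all 10 passed the filter on low counts in CA1 and in dentate gyrus (DG) granule nuclei, and between 0 and 9 of them passed it in each of the other cell classes tested.

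Hippocampi came from male APP/PS1 mice, which carry the APPSwe and PS1ΔE9 transgenes of familial Alzheimer's disease, and from wild-type (WT) littermates, all 4.5 to 5.5 months old. Mice were either awake (6 WT, 3 APP/PS1), under isoflurane brought down to 1.5% (3 WT, 4 APP/PS1), or under ketamine at 150 mg/kg given together with xylazine at 12 mg/kg (2 WT, 2 APP/PS1), and the anesthetized mice were sacrificed after 3 h. The sizes of the awake and isoflurane groups follow the labels and differ from those that the study's text reports. One library was made for each of the 20 mice, and mice are named here by the number in their sample title. The ketamine groups hold ketamine and xylazine together, so the agents cannot be told apart.

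Isoflurane is an inhaled anesthetic that acts on several ion channels, among them GABA-A receptors, while ketamine blocks NMDA receptors and xylazine is an α2-adrenergic agonist. The members share no pathway. Among the protein-coding members, Fut2 encodes a fucosyltransferase that adds fucose to galactose at the ends of glycans, Cda encodes cytidine deaminase, which turns cytidine into uridine in pyrimidine salvage, and Slc6a20a encodes a sodium-coupled transporter of proline and other imino acids. Sned1 encodes an extracellular matrix glycoprotein with sushi, nidogen and EGF-like domains, Cnmd encodes chondromodulin, a BRICHOS-domain glycoprotein known from cartilage, and Loxhd1 encodes a protein of repeated PLAT domains known from the hair cells of the inner ear. Gm30093, Gm35554, Mannr and Gm9866 are annotated as long non-coding RNAs (lncRNAs), RNAs with no known protein product.

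Sequences are shown for members whose promoters held a searched motif, and for Slc6a20a. They come from the RefSeq annotation of GRCm38.p6, the build that mm10 also names. Promoter windows of 250 bases before and 50 bases after the gene start were used for 7 members, from the RefSeq table of 32851 windows, and 7 motifs were searched in them on both strands. The cAMP response element TGACGTCA, the E-box CACGTG, the hypoxia response core ACGTG, the heat shock element GAANNTTC and the TATA box TATAAA were in none of the 7 windows, against 1.79%, 7.15%, 19.6%, 7.86% and 13.6% of all windows. The AP-1 motif TGANTCA was in 1 of the 7 (7.81% of all windows) and the glucocorticoid response motif AGAACA in 2 of the 7 (19.0%). The E-box contains the letters of the hypoxia response core, so those searches overlap. The 250 bases before the start of the 3 members with a match, and of Slc6a20a, whose level differed most in CPM between cell classes, are shown 5′ to 3′ on the gene's strand with the matches in capitals. They are at chr14:79662184-79662433 (minus strand) for Cnmd, chr12:27160517-27160766 (minus) for Gm9866, chr3:29890767-29891016 (plus) for Mannr and chr9:123678833-123679082 (minus) for Slc6a20a.
Cnmd: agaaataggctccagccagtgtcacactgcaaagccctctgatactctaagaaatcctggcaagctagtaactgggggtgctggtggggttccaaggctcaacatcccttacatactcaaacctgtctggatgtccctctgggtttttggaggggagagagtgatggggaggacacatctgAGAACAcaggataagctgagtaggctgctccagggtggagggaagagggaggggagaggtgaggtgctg
Gm9866: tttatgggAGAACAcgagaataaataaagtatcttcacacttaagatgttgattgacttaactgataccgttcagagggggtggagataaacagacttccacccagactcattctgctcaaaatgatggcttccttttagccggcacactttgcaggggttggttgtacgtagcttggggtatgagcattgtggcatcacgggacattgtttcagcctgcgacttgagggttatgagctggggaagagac
Mannr: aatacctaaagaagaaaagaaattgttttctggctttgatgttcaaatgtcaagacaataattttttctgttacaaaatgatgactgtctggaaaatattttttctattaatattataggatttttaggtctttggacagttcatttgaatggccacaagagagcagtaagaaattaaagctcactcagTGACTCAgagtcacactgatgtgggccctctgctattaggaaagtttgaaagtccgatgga
Slc6a20a: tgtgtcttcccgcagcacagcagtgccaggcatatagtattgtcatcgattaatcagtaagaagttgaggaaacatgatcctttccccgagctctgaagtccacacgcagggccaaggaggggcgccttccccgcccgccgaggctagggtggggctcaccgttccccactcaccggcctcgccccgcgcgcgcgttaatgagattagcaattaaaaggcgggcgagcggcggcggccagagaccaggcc
The Cnmd match lies 69 bases and the Gm9866 match 242 bases before the gene start, and the AP-1 match of Mannr lies 61 bases before it. No motif of this set was in all 7 windows.

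Counts are unique molecular identifiers (UMIs), and a level is given in CPM, the UMIs of a gene scaled to a fixed total for all nuclei of one class in one mouse. The 160777 nuclei gave 9.24e+06 to 2.54e+07 UMIs per mouse with a median of 1235 to 3169 per nucleus, and the 190 pairs of libraries shared at most 35 barcodes. Classes are clusters named from fixed marker genes, and the 16731 CA1 pyramidal-like nuclei carried 2814 to 3470 CPM of the 7 CA1 markers in awake mice, 2395 to 3709 CPM under isoflurane and 2023 to 2899 CPM under ketamine. As a check of the states in CA1, given without a test, the activity genes Arc and Npas4 were at 18.0 ± 6.86 and 13.9 ± 3.75 CPM (SD, n = 9) awake, 3.40 ± 1.65 and 4.14 ± 1.23 CPM (n = 7) under isoflurane and 2.32 ± 1.21 and 1.15 ± 0.969 CPM (n = 4) under ketamine. Fos, another activity gene, was at 8.53 ± 5.16, 1.17 ± 1.23 and 10.8 ± 10.4 CPM in the same order. Mice 1 to 4 stand apart in mitochondrial reads, at 0.939% to 1.78% of UMIs against 0.0353% to 0.336% in the other 16. The ketamine mice are numbers 25 to 28, and the only awake mouse of that run of numbers is mouse 29. In CA1, 88.0% of the nuclei of mouse 29 and 73.7% of those of ketamine mice were in one cluster. It held 12.9% of the nuclei of the other awake mice and 0.121% of those of isoflurane mice. Of the 2690 nuclei of that cluster, 33.4% came from 1 awake mouse of another run. All awake mice other than 29 together held 901 of them, so nearly all of these were from that 1 mouse. What the cluster stands for was not tested. The labels give no batch. Mice were placed in runs 1 to 4, 10 to 13, 14 to 17, 18 to 20 and 25 to 29 because the study's methods describe tissue processed in fours. Those methods also say that each such batch held every group. By the labels, run 10 to 13 held no WT isoflurane mouse and run 18 to 20 no awake APP/PS1 mouse, so these runs depart from that description. The numbers 10 to 20 are unbroken, the labels do not give that split, and what the runs stand for was not tested.

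In CA1 pyramidal-like nuclei, every isoflurane mouse was above every awake mouse for 10 of the 10 members, and edgeR's quasi-likelihood test called 10 of 10 higher after Benjamini-Hochberg adjustment. Of all 13789 genes tested in CA1, 0.957% had every isoflurane mouse above every awake mouse and 3.52% were called higher, and nothing is read from the members' counts because this contrast chose them. By the size of the log2 difference the members held ranks 4 (Loxhd1) to 514 (Gm9866) among the genes tested, and their median log2 difference was 2.45 against 0.01 over all genes.

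Among the protein-coding members, Loxhd1 had 0.424 to 2.19 CPM in the 9 awake mice (median 0.80) and 4.74 to 29.9 CPM in the 7 isoflurane mice (median 9.30), a log2 difference of 3.48 ± 0.45 (SE). Slc6a20a had 0 to 5.26 CPM awake (median 2.41) and 7.73 to 44.9 CPM under isoflurane (median 17.3), a log2 difference of 2.70 ± 0.40. Fut2 had 0.963 to 3.86 CPM awake (median 1.99) and 6.39 to 23.6 CPM under isoflurane (median 11.4), a log2 difference of 2.66 ± 0.33. The isoflurane mice were spread more widely than the awake mice for all of these, and isoflurane mouse 3 was the highest for each. Cnmd had 1.72 to 4.88 CPM awake (median 3.51) and 7.70 to 15.0 CPM under isoflurane (median 9.68), a log2 difference of 1.80 ± 0.23. Sned1 had 9.21 to 19.6 CPM awake (median 15.3) and 29.8 to 52.1 CPM under isoflurane (median 39.2), a log2 difference of 1.57 ± 0.20. Cda had 4.40 to 7.91 CPM awake (median 5.43) and 11.7 to 18.3 CPM under isoflurane (median 15.1), a log2 difference of 1.22 ± 0.21. For these members too the groups did not overlap, and the gap for Cda was between awake mouse 17 and isoflurane mouse 15.

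Among the lncRNAs, Gm30093 had 2.12 to 5.83 CPM in awake mice (median 4.80) and 12.9 to 52.8 CPM under isoflurane (median 26.2), a log2 difference of 2.84 ± 0.31. Mannr, whose symbol stands for an RNA adjacent to Mecom, had 0 to 1.45 CPM awake (median 0.768) and 3.72 to 8.09 CPM under isoflurane (median 5.42), a log2 difference of 2.82 ± 0.36. Gm35554 had 0.482 to 9.77 CPM awake (median 4.37) and 11.8 to 32.4 CPM under isoflurane (median 16.1), a log2 difference of 2.24 ± 0.31. Gm9866 had 34.4 to 54.6 CPM awake (median 39.0) and 70.0 to 95.3 CPM under isoflurane (median 76.1), a log2 difference of 0.95 ± 0.11. Mice 3 and 4 were the highest isoflurane mice for Gm30093, and mouse 11 was the highest for Mannr and Gm9866, so no single library was at the top throughout. Within the 4 of these runs that hold both states, the mean of the isoflurane mice was 3.99 to 9.68 times that of the awake mice for Gm30093 and 1.59 to 2.97 times for Cda. Over mice 10 to 20 taken as 1 run, the ratios were 5.79 and 2.16.

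**Figure D1:**
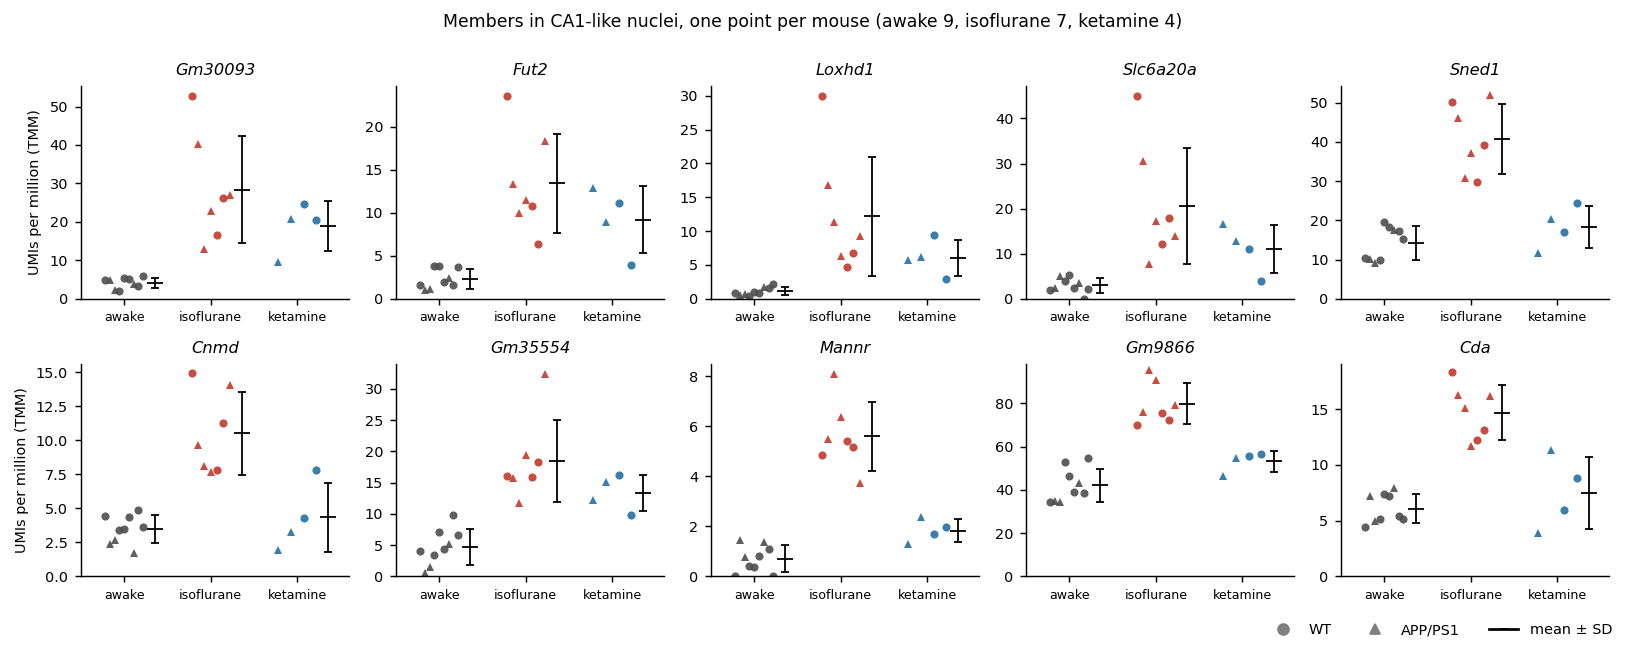
Level of each member in CA1 pyramidal-like nuclei, in CPM on the vertical axis, for awake, isoflurane and ketamine mice. Each point is 1 mouse (circles WT, triangles APP/PS1) and the bar is the mean ± SD. Isoflurane mice lie above all awake mice in each of the 10 panels, and ketamine mice lie apart from awake mice in 3 of them.

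The share of CA1 nuclei with a member's UMI is given as a description, since at about 1 UMI per positive nucleus it follows the summed level that chose the members. Each CA1 nucleus was thinned to 1000 UMIs so that depth did not enter, which left out 430 awake, 309 isoflurane and 54 ketamine nuclei. At that depth 4.59% to 8.79% of nuclei in awake mice had a UMI of at least 1 member (mean 7.12%), against 17.9% to 28.0% in isoflurane mice (mean 22.3%) and 9.77% to 16.1% in ketamine mice (mean 13.5%). The share with UMIs of 2 or more members was 0.162% ± 0.178 (SD, n = 9) in awake, 3.11% ± 1.71 (n = 7) in isoflurane and 0.559% ± 0.115 (n = 4) in ketamine mice. Without thinning, 19.2%, 45.5% and 33.1% of CA1 nuclei had a UMI of at least 1 member in the 3 states, at median depths of 2381, 2553 and 2722 UMIs. UMIs from free RNA can occur in every class, and their part in these shares was not tested. Gm30093 was in 1.15%, 7.64% and 5.17% of CA1 nuclei in the awake, isoflurane and ketamine states. It was in 0.0299%, 0.0159% and 0.0299% of oligodendrocyte-like nuclei, which were shallower, with median depths of 773, 752 and 706 UMIs. For the other 9 members the oligodendrocyte share was 0% to 0.568%, except for Slc6a20a (1.17% under ketamine) and Sned1 (5.07% to 7.47%).

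Other neurons of the same mice had higher member levels under isoflurane as well. Over the 8 other classes in which a member could be tested, 46 pairs of member and class were tested, 28 were called higher and 1 lower. A pair passes the filter when 2 mice of any state reach its limit, and 16 of the 46 passed only through anesthetized mice, which tilts them toward a rise: Gm30093 in CA3, subicular or cortical excitatory nuclei, interneurons and astrocytes, Loxhd1 in all 4 neuronal classes, Fut2 in CA3 and interneurons, Cda in CA3, DG and interneurons, Cnmd in CA3, Mannr in DG and Slc6a20a in oligodendrocytes. Of the 30 that awake mice alone would have passed, 19 were called higher. Without mice 1 to 4, 13 pairs in all were called higher: 7 in subicular or cortical excitatory nuclei, 2 in CA3, 3 in interneurons and 1 in DG. The share of all gene-class pairs in that fit is not given here, and in DG it called 0.0676% of all genes higher. With all mice, over the 9 classes tested outside CA1, 2.17% of all gene-class pairs were called higher and 1.53% lower. These mice are the ones that chose the members, so the classes share animals and libraries with the choice.

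Subicular or cortical excitatory-like nuclei had 9 members tested and 9 called higher (3.9% of all genes). Loxhd1 was at 0 in 7 of the 9 awake mice and at most 1.21 CPM in the others, and it had 2.41 to 17.1 CPM in isoflurane mice (median 6.34), a log2 difference of 4.97 ± 0.65. Gm30093 had 0 to 8.03 CPM in awake mice (median 2.61) and 15.8 to 37.1 CPM in isoflurane mice (median 27.1), a log2 difference of 3.57 ± 0.33. Neither member had overlapping groups here, and both passed the filter only through anesthetized mice, so their differences are given without p. The remaining 7 rose by log2 differences of 1.44 (Gm9866) to 2.50 (Gm35554), and 4 of the 9 had every isoflurane mouse above every awake mouse (0.529% of all genes).

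CA3 pyramidal-like nuclei had 9 members tested and 8 called higher (1.29% of all genes). Slc6a20a had 0.837 to 7.36 CPM awake and 5.76 to 47.9 CPM under isoflurane, with isoflurane mouse 11 inside the awake range, a log2 difference of 2.49 ± 0.34 (adjusted p = 0.000682). Gm9866 rose from 26.9 ± 5.49 CPM (SD, n = 9) to 56.7 ± 9.21 CPM (n = 7) with no overlap, a log2 difference of 1.06 ± 0.14 (adjusted p = 0.000682). Fut2 had a log2 difference of 1.93 ± 0.53 and was not called. Interneuron-like nuclei had 9 tested and 7 called higher (1.1% of all genes). Among them were Loxhd1 at 2.60 ± 0.49, without p because it passed the filter only through anesthetized mice, and Gm35554 at 1.76 ± 0.39 (adjusted p = 0.0171). Cda (0.95, without p for the same reason) and Cnmd (0.86, adjusted p = 0.26) were not called.

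DG granule-like nuclei, the largest class with 41042 nuclei, had all 10 members tested and 4 called higher (1.49% of all genes). Sned1 had 7.03 to 18.0 CPM in awake mice (median 13.0) and 24.0 to 44.1 CPM under isoflurane (median 28.9), a log2 difference of 1.30 ± 0.17 (adjusted p = 0.00102), and it was the only member here with no overlap between the groups (0.375% of all genes). Gm30093 had 1.07 to 16.3 CPM awake (median 6.69) and 9.94 to 43.4 CPM under isoflurane (median 25.3), a log2 difference of 2.15 ± 0.37 (adjusted p = 0.00587). Slc6a20a had 1.21 to 3.92 CPM awake (median 2.23) and 3.00 to 19.5 CPM under isoflurane (median 6.95), a log2 difference of 1.92 ± 0.35 (adjusted p = 0.00911), and the groups overlapped for both genes. Gm35554 was the other called member, at 1.36 ± 0.31 (adjusted p = 0.0249), and the 6 members not called had log2 differences of 0.69 (Gm9866) to 2.00 (Loxhd1). The DG count moved both ways: it was 8 with the run of numbers as a term of the fit, 7 without awake mouse 29 and 1 (Sned1) without mice 1 to 4, while 3.36%, 1.86% and 0.0676% of all DG genes were called higher in the same fits.

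The size of the rise differed between classes for some members. The log2 ratio of a class to DG granule nuclei in the same mouse was compared between states by a two-sided exact permutation test over mice, with adjustment over 39 such comparisons. The isoflurane difference of Fut2 and Cnmd was larger than in DG by 0.863 and 0.595 in subicular or cortical excitatory nuclei (adjusted p = 0.0205 and 0.0468). CA1 did not enter these tests because its values chose the members.

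**Figure D2:**
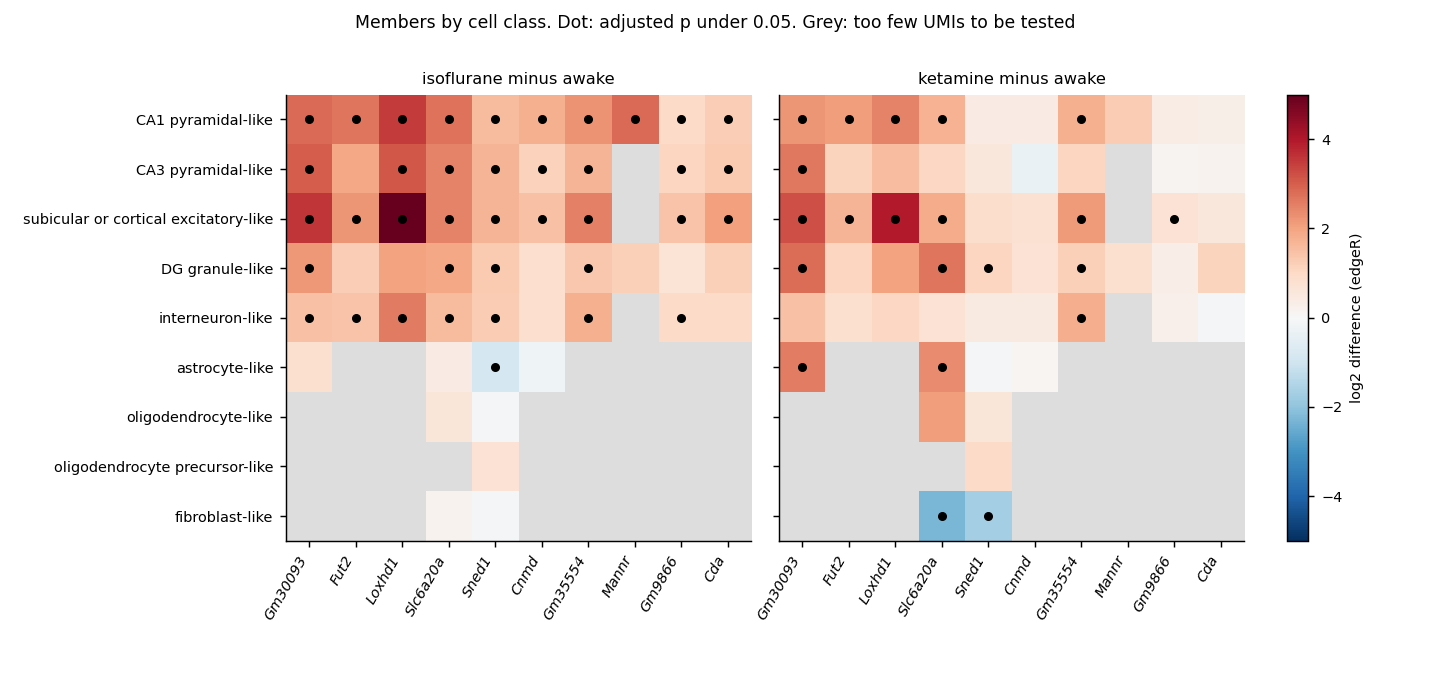
Log2 difference of each member (columns) in each class (rows) for isoflurane minus awake and for ketamine minus awake. Red is higher and blue lower than awake, a dot marks an adjusted p under 0.05 and grey marks a member that could not be tested. The isoflurane map is red across the 5 neuronal classes, and blue cells with a dot appear for Sned1 in astrocytes under isoflurane and for Slc6a20a and Sned1 in fibroblasts under ketamine.

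In glial and fibroblast nuclei few members could be tested, 9 pairs in all, and none was called higher under isoflurane. Astrocyte-like nuclei had 4 members tested and 0 called higher by edgeR or DESeq2 (4.94% of all genes in edgeR), with 0 at an unadjusted p under 0.05 in that direction. Sned1 was lower there: awake mice had 53.6 to 169 CPM (median 74.8) and isoflurane mice 26.0 to 58.8 CPM (median 44.0), a log2 difference of -0.89 ± 0.23 (adjusted p = 0.0192, where 2.71% of all genes were called lower). The groups overlapped between awake mouse 1 and isoflurane mice 15 and 20, and the call was lost without mice 1 to 4 (adjusted p = 0.052) and without awake mouse 17 (adjusted p = 0.0551). Against DG granule nuclei of the same mice, the isoflurane difference of Sned1 was smaller by 2.17 in astrocytes and by 1.40 in oligodendrocytes (both adjusted p = 0.0017, exact permutation test). Thus Sned1 rose in the neurons tested and fell in astrocytes of the same mice. Gm30093 had 0.556 to 4.24 CPM in awake and 1.73 to 7.37 CPM in isoflurane astrocytes, and its difference there was smaller than in DG by 1.44. This is given without p because Gm30093 passed the filter in astrocytes only through anesthetized mice.

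The level of Slc6a20a depended on the class. In awake mice it had 1060 ± 666 CPM in fibroblast-like nuclei (SD, n = 9) and 1650 ± 976 CPM in mural-like nuclei, against 2.94 ± 1.63 CPM in CA1. In fibroblasts the isoflurane mice had 756 to 1920 CPM inside the awake range of 400.3 to 2287 CPM, a log2 difference of 0.18 ± 0.40 (adjusted p = 0.974), and edgeR called 0 genes in fibroblasts under isoflurane (0%), with 0 of the 2 members tested at an unadjusted p under 0.05 in edgeR or DESeq2. In the sum of all nuclei, where fibroblast counts weigh heavily, Slc6a20a had 26.9 ± 18.4 CPM awake and 26.6 ± 8.27 CPM under isoflurane (log2 difference -0.08 ± 0.41, adjusted p = 0.952). It was the only member not called in that sum, where 9 of the 10 were called with all mice (3.8% of all genes). The sum holds the CA1 nuclei whose counts chose the members, so its calls are descriptions. Without mice 1 to 4, 5 were called, and the share of all genes in that fit is not given here. Oligodendrocyte nuclei had 2 members tested, with 0 called by edgeR (4.18% of all genes were called higher) or DESeq2 and 0 at an unadjusted p under 0.05. Sned1 was the 1 member tested in oligodendrocyte precursors, with a log2 difference of 0.71 ± 0.31 (adjusted p = 0.414, with 0.389% of all genes called higher), and in microglia no member passed the filter. Members below the filter in precursors were not tested, and some had more UMIs under isoflurane: Gm30093 had 1.45 ± 1.74 CPM (SD, n = 9) in awake and 10.3 ± 5.26 CPM (n = 7) in isoflurane mice, Slc6a20a 1.88 ± 3.37 and 9.84 ± 9.85 CPM, and Cnmd 2.91 ± 3.50 and 10.6 ± 10.8 CPM. These rest on 4 to 26 UMIs per state over all mice, and Gm9866 (30 awake and 26 isoflurane UMIs) and Cda (7 and 4) did not go that way.

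**Figure D3:**
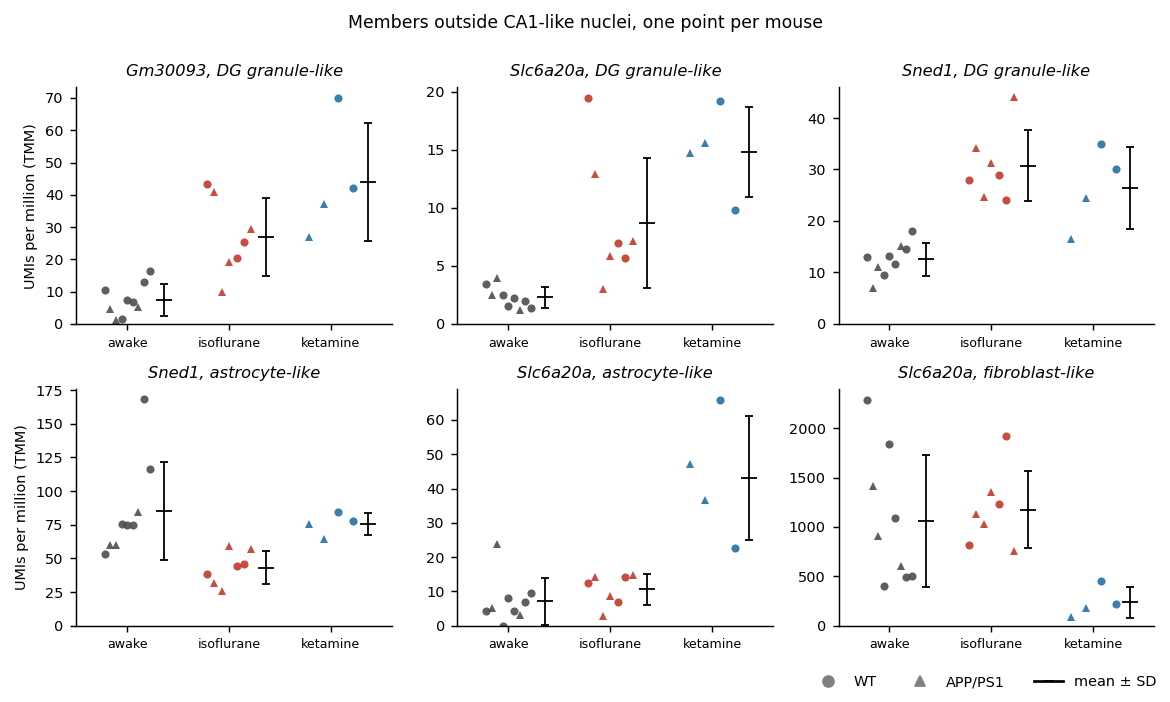
Levels in CPM per mouse outside CA1, for Gm30093, Slc6a20a and Sned1 in DG granule nuclei, Sned1 and Slc6a20a in astrocytes and Slc6a20a in fibroblasts. Points are mice (circles WT, triangles APP/PS1) and bars the mean ± SD. Sned1 is above all awake mice under isoflurane in DG and below most of them in astrocytes, and Slc6a20a under ketamine is high in astrocytes and low in fibroblasts.

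Ketamine anesthesia was compared with the same awake mice that enter the isoflurane contrast. Their CA1 values helped to choose the members, so ketamine minus awake in CA1 is not independent of that choice. It is given as a description, and the members' values in it are given without p. In CA1, 5 of the 10 members were called higher (4.15% of all genes) and the other 5 were not. Gm30093 had 9.63, 20.7, 24.7 and 20.5 CPM in ketamine mice 25 to 28, all above the awake maximum of 5.83 CPM, a log2 difference of 2.22 ± 0.36. Fut2 had 12.8, 8.94, 11.1 and 3.91 CPM, with mouse 28 just above the awake maximum of 3.86 CPM, a log2 difference of 2.10 ± 0.42. Loxhd1 had 5.78, 6.11, 9.38 and 2.93 CPM, a log2 difference of 2.49 ± 0.57. Fut2 and Loxhd1, like Mannr, also passed the filter in CA1 only through anesthetized mice. Gm30093, Fut2 and Loxhd1 were the 3 members with every ketamine mouse above every awake mouse (2.67% of all genes). Mouse 28 was the nearest to the awake mice for Fut2 and Loxhd1. Gm35554 had 12.2, 15.0, 16.2 and 9.76 CPM (1.79 ± 0.38) and Slc6a20a had 16.7, 12.7, 11.1 and 3.91 CPM (1.72 ± 0.52), with mouse 28 inside the awake range for both.

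The 5 members not called under ketamine were Sned1, Cnmd, Mannr, Gm9866 and Cda. Sned1 had 11.6, 20.2, 17.1 and 24.4 CPM (log2 difference 0.41 ± 0.26) and Cnmd had 1.93, 3.29, 4.26 and 7.81 CPM (0.40 ± 0.32). Gm9866 had 46.2, 54.6, 55.4 and 56.6 CPM (0.38 ± 0.14), Cda had 3.85, 11.3, 5.97 and 8.79 CPM (0.27 ± 0.28) and Mannr had 1.28, 2.35, 1.71 and 1.95 CPM (1.27 ± 0.52). Each of these overlapped the awake mice. Isoflurane minus ketamine in CA1 is given as a description, because it reuses the isoflurane values that chose the members: it was above 0 for 10 of the 10, with a median log2 difference of 0.96 against 0.06 over all genes. It was 1.15 ± 0.26 for Sned1, 1.39 ± 0.30 for Cnmd, 1.55 ± 0.44 for Mannr, 0.57 ± 0.14 for Gm9866 and 0.95 ± 0.27 for Cda, the 5 members that edgeR called in this contrast (3.99% of all genes were called higher), and it ranged from 0.45 ± 0.36 (Gm35554) to 1.00 ± 0.48 (Loxhd1) for the other 5. With the run of numbers as a term 0 were called and the estimate for Mannr turned to -1.83, and 0 were called without ketamine mouse 25 or 27.

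Outside CA1, ketamine gave 14 pairs called higher and 2 lower of the 46 (3.64% of all gene-class pairs called higher and 3.02% lower). Subicular or cortical excitatory nuclei had 6 of 9 members called (3.98% of all genes), with Gm30093 at 3.24 ± 0.35 and Loxhd1 at 3.96 ± 0.75, again without p. CA3 and interneurons had 1 of 9 each (2.68% and 2.21% of all genes), namely Gm30093 in CA3 (2.62 ± 0.65, without p) and Gm35554 in interneurons (1.80 ± 0.45, adjusted p = 0.0312). DG granule nuclei had 4 of 10 (6.24% of all genes), namely Gm30093, Slc6a20a, Sned1 and Gm35554. The DG class also differed in makeup: 52.8% of the nuclei of ketamine mice and 86.8% of those of mouse 29 were in one cluster. The largest cluster of the other awake mice held 41.3% of theirs. The cluster of the ketamine mice and mouse 29 was shared with mice 1 to 4, which held 47.5% of its nuclei. Gm30093 had 27.1, 37.2, 69.9 and 42.1 CPM in ketamine mice (2.80 ± 0.41, adjusted p = 0.000958), Slc6a20a had 14.7, 15.6, 19.2 and 9.77 CPM (2.69 ± 0.40, adjusted p = 0.00101) and Sned1 had 16.5, 24.4, 34.9 and 30.1 CPM (1.08 ± 0.20, adjusted p = 0.00341). For Gm30093 and Slc6a20a all ketamine mice were above all awake mice, and these were the 2 members with such a gap in DG (3.12% of all genes). Between isoflurane and ketamine, 6 of the 46 pairs outside CA1 were called higher and 3 lower under isoflurane (2.61% and 2.85% of all gene-class pairs), and 0 with the run of numbers as a term, where 14 had an unadjusted p under 0.05. The higher pairs were Cnmd (1.50 ± 0.38, without p) and Gm9866 (0.92 ± 0.19, adjusted p = 0.0159) in CA3, Cda (1.49 ± 0.37, adjusted p = 0.0311) and Gm9866 (0.70 ± 0.18, adjusted p = 0.0365) in subicular or cortical excitatory nuclei, and Slc6a20a (2.48 ± 0.54, adjusted p = 0.00606) and Sned1 (1.63 ± 0.40, adjusted p = 0.0098) in fibroblasts. The lower pairs were Gm30093 (-1.77 ± 0.48, without p) and Slc6a20a (-1.95 ± 0.47, adjusted p = 0.0152) in astrocytes and Sned1 in oligodendrocytes (-0.68 ± 0.20, adjusted p = 0.049). Neither edgeR nor DESeq2 called a member between isoflurane and ketamine in DG (4.81% of all genes in edgeR), with 0 of 10 at an unadjusted p under 0.05. With the run of numbers as a term in edgeR, 0 were called in DG and 5 of 10 had an unadjusted p under 0.05. Of these, 4 were higher and 1 lower under isoflurane.

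Slc6a20a was called higher in astrocytes and lower in fibroblasts of ketamine mice than of awake mice, and neither call held with the run of numbers as a term. In astrocytes it had 47.3, 36.8, 65.7 and 22.5 CPM in ketamine mice against 0 to 23.9 CPM in awake mice, a log2 difference of 2.38 ± 0.46 (adjusted p = 0.00388), and mouse 28 lay inside the awake range. Gm30093 was called there too, with 2.20, 17.0, 14.4 and 19.7 CPM (2.55 ± 0.50, without p because it passed the filter only through anesthetized mice), with mouse 25 inside the awake range and the call likewise lost with the run term, so that 2 of the 4 members tested were called higher (5.25% of all genes). In fibroblasts Slc6a20a had 85.1, 184, 453 and 223 CPM in ketamine mice, a log2 difference of -2.30 ± 0.53 (adjusted p = 0.0135), and Sned1 had 46.2, 99.1, 136 and 142 CPM, a difference of -1.71 ± 0.39 (adjusted p = 0.0132), where 4.98% of all genes were called lower. Both overlapped the awake mice, whose lowest values were 400.3 CPM for Slc6a20a and 86.5 CPM for Sned1. The summed level of the 7 fibroblast markers moved with these results: in astrocyte nuclei it was 12.1 to 274 CPM awake, 14.1 to 227 CPM under isoflurane and 143 to 699 CPM under ketamine, all 7 markers had UMIs there, and its part in the Slc6a20a result was not tested. In CA1 nuclei the same sum was 5.50 to 97.7, 23.6 to 90.7 and 54.8 to 172 CPM in the 3 states. The fibroblast class also changed in makeup, with 78.0% of the nuclei of awake mice other than 29 in one cluster and 62.1% of ketamine and 71.5% of mouse 29 nuclei in another.

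The ketamine differences rest on mice of a single run of numbers. Against mouse 29, the awake mouse of that run, the ketamine mean in CA1 was higher 3.24-fold for Gm30093, 5.08-fold for Slc6a20a, 2.52-fold for Fut2, 2.77-fold for Loxhd1 and 2.03-fold for Gm35554, and all 4 ketamine mice were above mouse 29 for these 5 members. The ratios for Sned1, Cnmd, Gm9866 and Cda were 1.20, 1.19, 0.974 and 1.47, and Mannr has no ratio because mouse 29 was at 0 while the ketamine mean was 1.82 CPM. In DG, Slc6a20a was 11.1-fold and Gm30093 2.70-fold above mouse 29, while Gm35554 was at 0.990. With the run of numbers as a term of the fit, 0 members were called for ketamine in CA1 or elsewhere, where 0% of all CA1 genes and 0.00202% of all gene-class pairs outside CA1 were called higher, 2 of 10 in CA1 and 9 of the 46 pairs elsewhere had an unadjusted p under 0.05, and the log2 differences of the 5 called members were 1.38 to 2.10. With mice 10 to 20 as 1 run, an alternative added after seeing the data, 0 were called as well. A single awake mouse carries that comparison, so ketamine and the run of numbers cannot be told apart beyond these ratios. The 5 calls in CA1 became 1 without ketamine mouse 27.

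**Figure D4:**
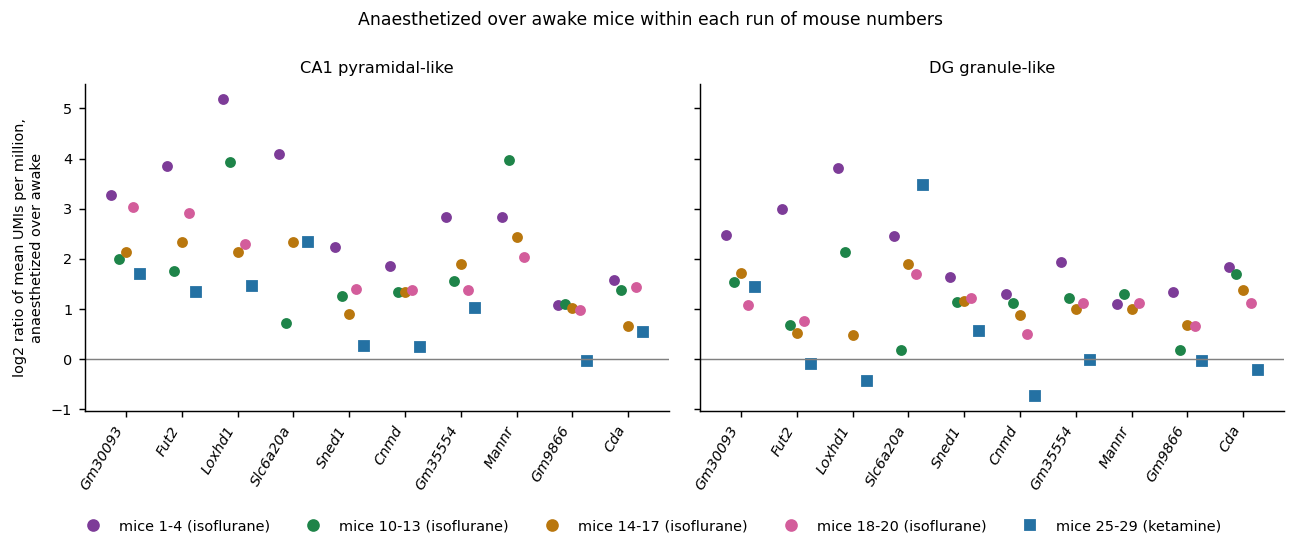
Log2 ratio of the mean level in anesthetized mice to that in awake mice of the same run of mouse numbers, for each member in CA1 and DG granule nuclei. The first 4 runs compare isoflurane with awake mice, and the last compares ketamine mice with mouse 29 alone. A point is missing where the awake mice of the run were at 0. In CA1 every isoflurane ratio is above 0, and the ketamine ratios are near 0 for Sned1, Cnmd and Gm9866.

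The APP/PS1 genotype was compared with WT within states. No member was called in CA1 under isoflurane (0% of all genes were called), where APP/PS1 minus WT ranged from -0.51 ± 0.49 (Slc6a20a) to 0.25 ± 0.39 (Gm35554) on the log2 scale. Slc6a20a had 12.2 to 44.9 CPM in the 3 WT and 7.73 to 30.6 CPM in the 4 APP/PS1 isoflurane mice, so the genotypes overlapped. In the awake state no member was called in CA1 either (0% of all genes): Gm35554 had 3.40 to 9.77 CPM in 6 WT and 0.482 to 5.16 CPM in 3 APP/PS1 mice, a difference of -1.16 ± 0.50, and Cnmd had 3.40 to 4.88 CPM in WT and 1.72 to 2.69 CPM in APP/PS1 mice, a difference of -0.82 ± 0.36, both with an adjusted p of 1 in edgeR. At an unadjusted p under 0.05 there were 0 of 10 members under isoflurane and 2 of 10 in the awake state in edgeR, and 0 and 1 in DESeq2, which also called none. Outside CA1 in the awake state, edgeR and DESeq2 called 0 of the 46 pairs (0% of all gene-class pairs), with 6 at an unadjusted p under 0.05 in each, all lower in APP/PS1 mice. The interaction of genotype and isoflurane called no member (0% of all genes), with 1 of 10 at an unadjusted p under 0.05 in edgeR and 2 in DESeq2. Gm35554 had the smallest unadjusted p, with a rise larger in APP/PS1 mice by 1.41 ± 0.64 (adjusted p = 0.874). With 3 or 4 mice in most groups, differences of the size of these standard errors were not detectable.

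In the same annotation, Gm30093 and Loxhd1 are on 1 chromosome and the other members on 8 others. Of 13 genes next to a member in the files, 10 were tested in CA1, and isoflurane gave 3 higher, against 3.52% of all genes, and 1 lower. Values are given below only for those that were called under isoflurane. Slc6a20b, a paralog of Slc6a20a that lies 4369 bases away, had 13.9 ± 4.37 CPM in awake, 33.9 ± 15.8 CPM in isoflurane and 38.8 ± 9.54 CPM in ketamine CA1 nuclei, log2 differences of 1.35 ± 0.27 (adjusted p = 0.0062) and 1.54 ± 0.32 (adjusted p = 0.0059). How reads shared by the paralogs were counted was not tested, so their values may not be independent. Gm33206, a lncRNA that overlaps Mannr, had 13.3 ± 8.36, 75.0 ± 29.9 and 35.6 ± 11.1 CPM in the 3 states (isoflurane 2.59 ± 0.35, adjusted p = 0.000296). How reads of that overlap were counted was not tested either, so the values of Gm33206 and Mannr may not be independent. Kcnv2, a silent potassium channel subunit 7570 bases from Gm35554, had 0.359 ± 0.334 CPM awake and 3.39 ± 2.40 CPM under isoflurane (2.84 ± 0.59). Under ketamine it had 0.448 ± 0.519 CPM (0.28). Kcnv2 is 1 of the 3 counted as higher, but it passed the filter only through isoflurane mice, so it is given without p. St8sia5, a sialyltransferase gene next to Loxhd1, went down under isoflurane from 90.9 ± 7.82 to 59.7 ± 12.1 CPM (-0.58 ± 0.12, adjusted p = 0.00577).

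Of 47 tested genes of the families to which the members belong, 4 were called higher under isoflurane in CA1, against 3.52% of all genes, and 2 lower. In CA1 under isoflurane, 1 of 9 SLC6 transporters tested was higher (Slc6a20b) and 0 lower, and of 13 pyrimidine salvage and synthesis genes 2 were higher and 1 lower. Umps, which makes UMP, rose by 0.89 ± 0.22 (adjusted p = 0.0226), Upp2, a uridine phosphorylase, by 0.50 ± 0.11 (adjusted p = 0.0109), and Uck2, a uridine-cytidine kinase, fell by 0.43 on the log2 scale (SE 0.11, adjusted p = 0.0271). Of 10 basement membrane and sushi-domain matrix genes, Lamc1, a laminin chain, was lower by -0.52 ± 0.14 (adjusted p = 0.0298), and of 6 lipoxygenase and PLAT-domain genes Aloxe3 was higher by 1.09 ± 0.28 (adjusted p = 0.0275). None of 6 fucosyltransferases and none of 3 BRICHOS-domain genes was called. Under ketamine in CA1, 3 of the 47 were higher, against 4.15% of all genes, and 2 lower, again from ketamine mice of a single run. Of the SLC6 genes, Slc6a20b and Slc6a15, another amino acid transporter (0.64, adjusted p = 0.0354), were higher. In the same contrast Nid2, a nidogen of basement membranes, was higher by 3.27 ± 0.56 (adjusted p = 0.0018) and Pofut2, a protein O-fucosyltransferase, lower by -1.61 ± 0.41 (adjusted p = 0.0179), as was Uck2 by -0.55 ± 0.14 (adjusted p = 0.0166).

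The 5 other genes whose CA1 levels followed the mean of the members most closely over the 20 mice were Gm47359, Gm33206, Galnt10, Gm17382 and Tmc2. Their Spearman rho with the mean of the members was 0.962, 0.908, 0.902, 0.902 and 0.887, given as a description because the mice share states and libraries. Tmc2, which encodes a part of the mechanotransduction channel of hair cells, had 1.15 ± 0.479 CPM awake, 5.54 ± 2.06 CPM under isoflurane and 2.41 ± 1.08 CPM under ketamine. Galnt10, an enzyme that starts O-linked glycans, had 7.67 ± 1.50, 16.3 ± 3.32 and 9.71 ± 1.97 CPM in the same order.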

How the data were processed

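Nuclei of 20 hippocampi were profiled by 10x Genomics 3′ single-nucleus RNA sequencing. The authors deposited, per mouse, raw UMI counts per gene and nucleus made with Cell Ranger 5.0.0 on mm10, with intronic reads counted; their methods also name CellBender and a minimum of 200 genes per nucleus, and the files alone do not show whether the former was applied. Intron reads raise the counts of long genes and lncRNAs.

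Members and gene lists were chosen with earlier results of these data known. Nuclei were clustered (leidenalg 0.10.2, resolution 1, 2000 variable genes without the members, 30 components, 20 neighbours, centring per mouse), 10844 doublets (6.74%) were removed, and clusters were named from fixed markers. An interneuron cluster also had to have Gad1 or Gad2 in 30% of nuclei, a limit set after clusters were seen, which left 1 cluster led by Slc17a6 and Lef1 unnamed. Classes needed 10 nuclei per mouse.

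Counts summed per mouse and class were tested with edgeR 4.0.16 (R 4.3.3), using TMM, filterByExpr, 6 groups in 1 quasi-likelihood fit and Benjamini-Hochberg adjustment over all genes of a class at 0.05. Standard errors are the log2 difference over the root of F. Exact permutation tests added 1 CPM before logs. The fit was tested on simulated data. Alternatives were DESeq2 1.42.0, no filter, fewer states, the run of mouse numbers as a term (runs 1 to 4, 10 to 13, 14 to 17, 18 to 20 and 25 to 29, or 10 to 20 as 1 run), mice 1 to 4 left out, doublets kept, resolution 2, nuclei gated one by one, and each mouse left out. Named genes were all members, up to 3 called genes of each family list with the smallest adjusted p, and the state genes Arc, Npas4 and Fos. Also named were the genes next to the members that were called under isoflurane in CA1. The last were the 5 genes with the highest Spearman rho to the members' mean in CA1. UMI totals limit precision to counting error plus the spread between mice.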

Additional observations from a re-analysis of the deposited data

Results flagged for a closer look

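Of 87 sets of values of a member in a class, in the groups of 4 (APP/PS1 isoflurane) or 6 mice (WT awake), 7 held a mouse far from the others, where chance alone gives about 1 in 20. In CA3 under isoflurane, APP/PS1 mouse 15 had 4.26 CPM of Cnmd, against 6.15 to 6.50 CPM in the other 3 mice, and APP/PS1 mouse 4 had 42.8 CPM of Gm30093 against 5.38 to 9.10 CPM in the others. In awake WT DG granule nuclei, mouse 29 had 3.66 CPM of Cda and 0 CPM of Mannr. In subicular or cortical excitatory nuclei, awake WT mouse 12 had 10.0 CPM of Cda and isoflurane APP/PS1 mouse 11 had 7.92 CPM of Slc6a20a. In interneurons, isoflurane APP/PS1 mouse 20 had 26.2 CPM of Fut2.

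The difference between states, taken as the log2 ratio of a class to DG granule nuclei of the same mouse, passed the exact permutation test (39 comparisons adjusted together, adjusted p from 0.0017 to 0.0492) in 19 cases. Loxhd1 was near 0 in awake mice, where the added 1 CPM sets most of its ratio, and passed the filter in these classes through anesthetized mice, so its values are descriptions. The values of Gm30093 in astrocytes and in subicular or cortical excitatory nuclei, and of Cnmd in CA3, are descriptions too. They passed the filter there only through anesthetized mice. For isoflurane minus awake these were Loxhd1 (1.92), Fut2 (0.863) and Cnmd (0.595) in subicular or cortical excitatory nuclei, Loxhd1 in CA3 (1.34), Gm30093 (-1.44) and Sned1 (-2.17) in astrocytes, and Sned1 in oligodendrocytes (-1.40). The ketamine minus isoflurane cases take no account of the run of mouse numbers: all ketamine mice and no isoflurane mouse were in run 25 to 29, so ketamine and the run cannot be told apart there. In these cases Slc6a20a was lower relative to DG in CA3 (-2.04), interneurons (-1.57), subicular or cortical excitatory nuclei (-1.26) and fibroblasts (-3.34) and higher in astrocytes (1.11). Sned1 was lower relative to DG in CA3 (-0.818) and fibroblasts (-1.36) and higher in astrocytes (1.07) and oligodendrocytes (0.948). Cnmd in CA3 (-1.12), Loxhd1 in interneurons (-1.49) and Gm30093 in subicular or cortical excitatory nuclei (-0.980) were the others.

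Classes with too few nuclei for a test were searched for rises only. Endothelial-like nuclei of isoflurane mice had 55.8 CPM of Fut2 (20 UMIs over all mice, exact Poisson 95% interval 34.1 to 86.1 CPM, counting error only) against 0.872 CPM in awake mice. Only 3 of the 7 isoflurane mice had a Fut2 UMI, mouse 4 held 13 of the 20, and the level without it was 28.6 CPM. Choroid plexus or ependyma-like nuclei of ketamine mice had 648 CPM of Slc6a20a (interval 585 to 716 CPM) against 293 CPM in awake mice. Per mouse this was 375 ± 355 CPM (SD, n = 4, 1 mouse at 0) against 154 ± 184 CPM (n = 9, median 9.02), and 90.3% of the ketamine and 73.3% of the awake nuclei of that class were in one cluster. Pooled Slc6a20a also went down under isoflurane. In endothelial-like nuclei it was 313 CPM (281 to 347 CPM) awake and 112 CPM (79.7 to 152 CPM) under isoflurane, per mouse 253 ± 99.0 and 120 ± 106 CPM. In choroid plexus or ependyma-like nuclei it was 293 and 155 CPM (121 to 195 CPM), per mouse 154 ± 184 and 101 ± 123 CPM.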

How the results depend on the processing

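Depth limits most members to a few UMIs per class and mouse, and ketamine has 4 mice of 1 run of numbers, so a missing call does not show a missing change. The CA1 isoflurane values chose the members, so nothing is read from refits of that contrast, which called 10 in each fit but one (8 with nuclei gated one by one, which left 9 to test) and 10 to 10 with 1 mouse left out. Genotype and interaction counts in CA1 were 0 in every fit. In DG the 4 isoflurane calls became 8 with the run term and 1 without mice 1 to 4, and 3 to 7 with 1 mouse left out (7 without mouse 29). The 28 isoflurane pairs outside CA1 became 13 without mice 1 to 4, and 22 to 32 with 1 mouse left out. The 5 ketamine calls in CA1 became 0 with the run term and 3 with nuclei gated one by one, and 1 to 6 with 1 mouse left out (1 without mouse 27). The 14 ketamine pairs outside CA1 became 0 with the run term and 8 with nuclei gated one by one, and 8 to 19 with 1 mouse left out (9 without mouse 26, 8 without mouse 27). In isoflurane against ketamine in CA1, which reuses those values, the 5 calls became 3 without the filter, 3 with only those states in the fit, 0 with the run term and 1 with nuclei gated one by one, and 0 to 5 with 1 mouse left out (0 without mouse 25 or 27, 2 without mouse 28, 3 without mouse 3, 4 or 18). Mannr, isoflurane against ketamine in CA1, reversed to -1.83 with the run term. For ketamine with the run term, 0% of all CA1 genes and 0.00202% of all gene-class pairs outside CA1 were called higher. For most of the other refits, including mice 10 to 20 as 1 run, the share of all genes called is not given here. A changed count is therefore not read as a change of the members. The cause of these changes was not tested. Of the 73 single calls of a member in a class, DESeq2 kept 71, the run term 39, and leaving out 1 mouse 1312 of 1460. Without mice 1 to 4, 49 of 70 were kept, and with nuclei gated one by one 44 of 66. The 73 include the CA1 isoflurane calls that chose the members and the CA1 calls that reuse those values. These kept counts are therefore descriptions. Taking mice 10 to 20 as 1 run, an alternative chosen after seeing the data, gave 10 in CA1, 8 in DG and 34 pairs for isoflurane, 0 and 0 for ketamine, 0 for isoflurane against ketamine and -1.89 for Mannr in that contrast. Mouse numbers are not shared between groups, so mice could not be paired by number, and the run was the block fitted.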
